A study of Homo sapiens with 9 samples.

Results

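The human mitochondrial genome encodes 37 RNAs, and all of them had a row in the deposited gene table of 58387 rows. They were chosen by symbol alone, as every row beginning with MT-, and comprise 13 mRNAs, 2 rRNAs and 22 tRNAs. The set was singled out for description with its share of all counts in knockdown and control cells already known. Its values in that contrast are therefore a description, and calls of members there are counted only beside the share over all genes, with nothing read from them. Tests of members are kept to the contrasts with rescued cells. Those contrasts reuse the knockdown or the control libraries on which the set was singled out. Their p-values are therefore not independent of that choice.

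The libraries were made from MM1S, an established human multiple myeloma line, in a study of PHF19, an accessory subunit of Polycomb repressive complex 2. In PHF19_KD (n = 3) the cells had been infected with lentivirus carrying an shRNA against PHF19. In KD_Rescued (n = 2) they carried that shRNA together with an shRNA-resistant PHF19, and in shEV (n = 3) they had been infected with the empty vector. One further library, MMCL11, has labels that disagree, with a title naming a knockdown and an shRNA label naming shRNA-resistant PHF19, so it was kept apart and enters no test. The cells of every group had thus been through lentiviral infection, and no group of uninfected cells was analysed here. Whether replicates came from separate cultures is not given, so p-values measure the spread between libraries, which may be technical. The KD_Rescued libraries were run in lane 2 and all others in lane 6, so the sequencing lane and the rescue coincide and cannot be told apart.

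Mitochondrial DNA is transcribed on both strands into long precursors that cover most of the genome, and the tRNAs that lie between the mRNAs and rRNAs mark where the precursors are cut. The heavy-strand transcript carries both rRNAs of the mitochondrial ribosome, 12 mRNAs and 14 tRNAs. The light-strand transcript carries MT-ND6 and 8 tRNAs. The mRNAs encode subunits of respiratory complex I (MT-ND1 to MT-ND6 and MT-ND4L), complex III (MT-CYB), complex IV (MT-CO1 to MT-CO3) and ATP synthase, or complex V (MT-ATP6 and MT-ATP8), which together form the core of oxidative phosphorylation. Mature rRNAs and mRNAs, MT-ND6 mRNA excepted, receive short A tails, which lets them enter libraries made by poly(A) selection, whereas mature tRNAs receive only CCA. The labels name a TruSeq kit and 1 µg of total RNA, and neither how rRNA was removed nor whether strand was kept is given in the sources used here.

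The genes of 6 tRNAs on which the results below turn are shown 5′ to 3′ as DNA letters of the RNA strand, from GENCODE release 29 on GRCh38, where all 37 members were matched by symbol. Capitals mark the anticodon, found as the triplet in a 7-base loop closed by a stem. MT-TF and MT-TV flank the first rRNA gene and had the largest fold differences between knockdown and control among members with more than 3 reads in each group. MT-TR, MT-TS2 and MT-TL2 had most of their few reads in rescued cells. MT-TA was the most abundant tRNA, and it is the one of the 6 that is read from the light-strand transcript.
MT-TF (phenylalanine): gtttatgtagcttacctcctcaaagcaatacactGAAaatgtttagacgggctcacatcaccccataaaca
MT-TV (valine): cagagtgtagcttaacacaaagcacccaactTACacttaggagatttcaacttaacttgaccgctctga
MT-TR (arginine): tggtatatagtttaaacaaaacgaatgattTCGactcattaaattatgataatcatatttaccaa
MT-TS2 (serine, AGY codons): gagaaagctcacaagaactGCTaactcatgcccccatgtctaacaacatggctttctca
MT-TL2 (leucine, CUN codons): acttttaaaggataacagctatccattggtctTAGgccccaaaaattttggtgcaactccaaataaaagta
MT-TA (alanine): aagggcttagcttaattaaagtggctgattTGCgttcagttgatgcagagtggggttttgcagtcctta

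The libraries held 10609798 to 12024913 counts in PHF19_KD, 23644123 and 23751353 in KD_Rescued, 16974728 to 22739741 in shEV and 10164112 in MMCL11. PHF19 followed the labels, with 26.9 ± 0.860 CPM (counts scaled to library size with a trimmed-mean factor; SD, n = 3) in PHF19_KD, 219 ± 1.74 CPM in KD_Rescued (SD, n = 2) and 117 ± 11.8 CPM in shEV (SD, n = 3), and it stood at 63.6 CPM in MMCL11. All 10 plasma cell markers examined were present. In PHF19_KD against shEV 3 of them were called higher (CD38, SDC1 and XBP1) and 5 lower (IGJ, TNFRSF17, MZB1, IRF4 and POU2AF1). Of all genes tested, 34.9% were called higher and 34.2% lower in that contrast. Markers of T and NK cells, monocytes and epithelial cells were near absent, with T and NK cell markers summing to at most 2.55 CPM in any library, monocyte markers to 3.47 CPM and epithelial markers to 1.36 CPM, and CD3D was at 0 in all 9. Of the 8 T and NK cell markers 2 were at 0 throughout, as were 2 of the 6 monocyte markers and 1 each of the 5 epithelial, 6 fibroblast and 6 erythroid markers. Fibroblast markers summed to 9.89 to 10.6 CPM in PHF19_KD, 0.957 to 1.54 CPM in KD_Rescued and 2.53 to 2.78 CPM in shEV, and erythroid markers to 12.3 to 14.1 CPM in PHF19_KD, 59.4 to 61.2 CPM in KD_Rescued and 51.3 to 53.5 CPM in shEV. The part of these differences in the results was not tested. Replicates differed by more than counting noise, with a chi-square per degree of freedom of 2.24 to 11.95 between pairs, the largest for pairs with shEV replicate 3, so each library was counted separately.

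Mitochondrially encoded RNAs made up 10.0%, 9.02% and 9.74% of all counts in the PHF19_KD libraries, 4.99% and 5.18% in KD_Rescued, and 3.31%, 2.84% and 3.32% in shEV. The groups did not overlap, and KD_Rescued lay between the other two. The means were 9.597% ± 0.518 in PHF19_KD (SD, n = 3), 5.08% ± 0.132 in KD_Rescued (SD, n = 2) and 3.16% ± 0.279 in shEV (SD, n = 3). KD_Rescued was 4.51 percentage points below PHF19_KD and 1.93 percentage points above shEV, each with an exact two-sided permutation p of 0.1, the smallest that 2 against 3 libraries allow, so that neither can pass 0.05. As these are bulk samples, fewer mitochondria, fewer cells of a kind and less RNA per cell cannot be told apart.

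All classes stood in the same order of groups, but not in the same proportion. The 13 mRNAs took 8.58%, 7.67% and 8.32% of counts in PHF19_KD, 4.48% and 4.65% in KD_Rescued, and 3.06%, 2.61% and 3.06% in shEV. For the 2 rRNAs the shares were 1.352%, 1.246% and 1.315% in PHF19_KD, 0.455% and 0.472% in KD_Rescued, and 0.216%, 0.195% and 0.236% in shEV. The rRNA share thus differed more widely between the groups than the mRNA share did. The 22 tRNAs held only 0.0984%, 0.108% and 0.102% of counts in PHF19_KD, 0.0508% and 0.0510% in KD_Rescued, and 0.0353%, 0.0339% and 0.0302% in shEV. With tRNA genes 59 to 75 bases long, shorter than the usual insert of such a library, and with no record of how reads that cross a gene border were counted, tRNA counts may come from mature tRNAs or from precursors, and these cannot be told apart.

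**Figure D1:**
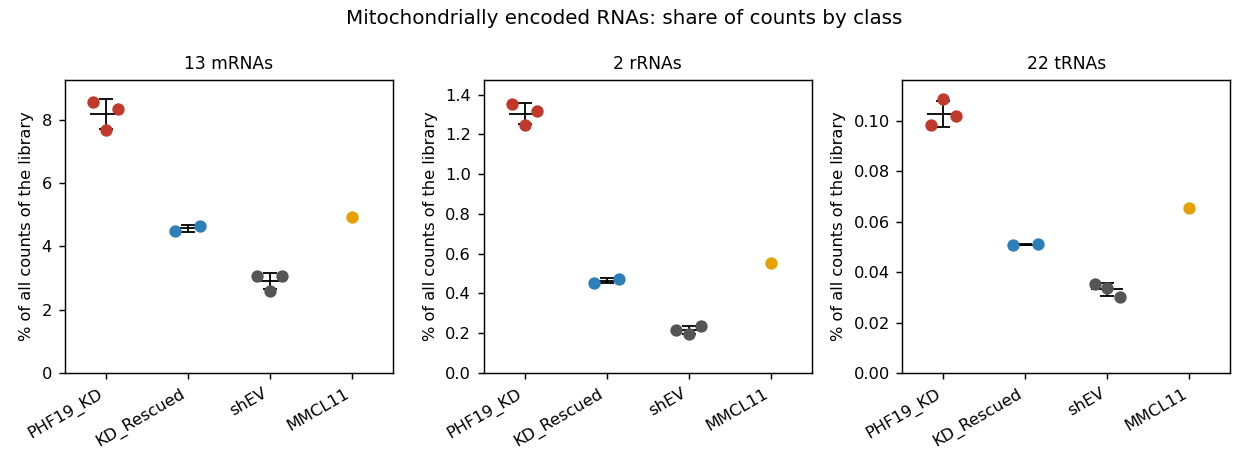
Share of each library's counts (percent, linear axes from 0) taken by mitochondrial mRNAs, rRNAs and tRNAs. Points are libraries and bars give mean ± SD of a group. PHF19_KD is highest and shEV lowest in every class, with mRNA shares of 7.67% to 8.58% and 2.61% to 3.06%, and MMCL11 lies between these.

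Long RNAs that stay in the nucleus stood in the same order of groups. MALAT1 and NEAT1 summed to 1315, 1026 and 1155 CPM in PHF19_KD, 818 and 843 CPM in KD_Rescued, and 381, 284 and 363 CPM in shEV. Both RNAs were called higher in PHF19_KD than in shEV, lower in KD_Rescued than in PHF19_KD, and higher in KD_Rescued than in shEV. The 17 nuclear-encoded RNAs without a poly(A) tail that were examined summed to 18.6, 14.8 and 45.8 CPM in PHF19_KD, 15.2 and 21.1 CPM in KD_Rescued, and 8.80, 7.94 and 9.27 CPM in shEV, and only 4 of them passed the filter on low counts. Of those 4, RN7SK was called higher in PHF19_KD than in shEV, by 3.04 on the log2 scale, and the other 3 were not called. In KD_Rescued against PHF19_KD, RN7SK and SNORD3A were called lower and the other 2 were not called. RN7SL1 alone was called in KD_Rescued against shEV, where it was higher. The part of RNA capture or RNA quality in the mitochondrial values was not tested.

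The balance between rRNA and mRNA differed between the groups. There were 15.8, 16.3 and 15.8 rRNA counts per 100 mRNA counts in PHF19_KD, 10.1 and 10.1 in KD_Rescued, and 7.05, 7.49 and 7.72 in shEV. The groups did not overlap, and the spread within each was small beside the gaps. On the log2 scale the ratio was 1.10 higher in PHF19_KD than in shEV, given as a description. It was 0.65 lower in KD_Rescued than in PHF19_KD and 0.45 higher in KD_Rescued than in shEV (exact two-sided permutation p = 0.1 for each, the smallest possible).

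The ratio between the strands behaved differently. MT-ND6, the complex I subunit that is the sole mRNA of the light strand, had 1.72, 1.75 and 1.71 counts per 100 counts of the 12 heavy-strand mRNAs in PHF19_KD, 1.70 and 1.78 in KD_Rescued, and 1.46, 1.40 and 1.46 in shEV. The KD_Rescued libraries enclosed those of PHF19_KD and stood apart from shEV. The log2 difference was 0.01 between KD_Rescued and PHF19_KD (exact two-sided permutation p = 0.8) and 0.27 between KD_Rescued and shEV (exact p = 0.1), and PHF19_KD stood 0.27 above shEV. Without KD_Rescued replicate 2 the first of these was -0.03. MT-ND6 reads can be told from those of the opposite strand only in stranded libraries, so part of its count may belong to heavy-strand RNA across the same stretch.

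For tRNAs, sorted by annotated strand, the strands parted further. As for MT-ND6, their reads can be told from those of the opposite strand only in stranded libraries. Part of the light-strand tRNA counts may thus belong to heavy-strand RNA across the same stretch. The 8 light-strand tRNAs gave 10.8, 13.5 and 11.6 counts per 1000 mRNA counts in PHF19_KD, 10.7 and 10.4 in KD_Rescued, and 11.3, 12.8 and 9.65 in shEV, with the groups overlapping. The 14 heavy-strand tRNAs were far scarcer, at 0.710, 0.672 and 0.663 counts per 1000 mRNA counts in PHF19_KD, 0.586 and 0.594 in KD_Rescued, and 0.221, 0.209 and 0.229 in shEV. Here the knockdown and rescued libraries lay near each other and all of shEV lay below them. Light-strand tRNAs supplied 94.5% ± 0.718 of tRNA counts in PHF19_KD (SD, n = 3), 94.7% ± 0.177 in KD_Rescued (SD, n = 2) and 98.1% ± 0.358 in shEV (SD, n = 3). As a share of all mitochondrial counts, tRNAs held 1.08% ± 0.114 in PHF19_KD (SD, n = 3), 1.00% ± 0.0228 in KD_Rescued (SD, n = 2) and 1.06% ± 0.143 in shEV (SD, n = 3), and no contrast exceeded the spread (exact two-sided permutation p = 0.7 for KD_Rescued against PHF19_KD and again against shEV).

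**Figure D2:**
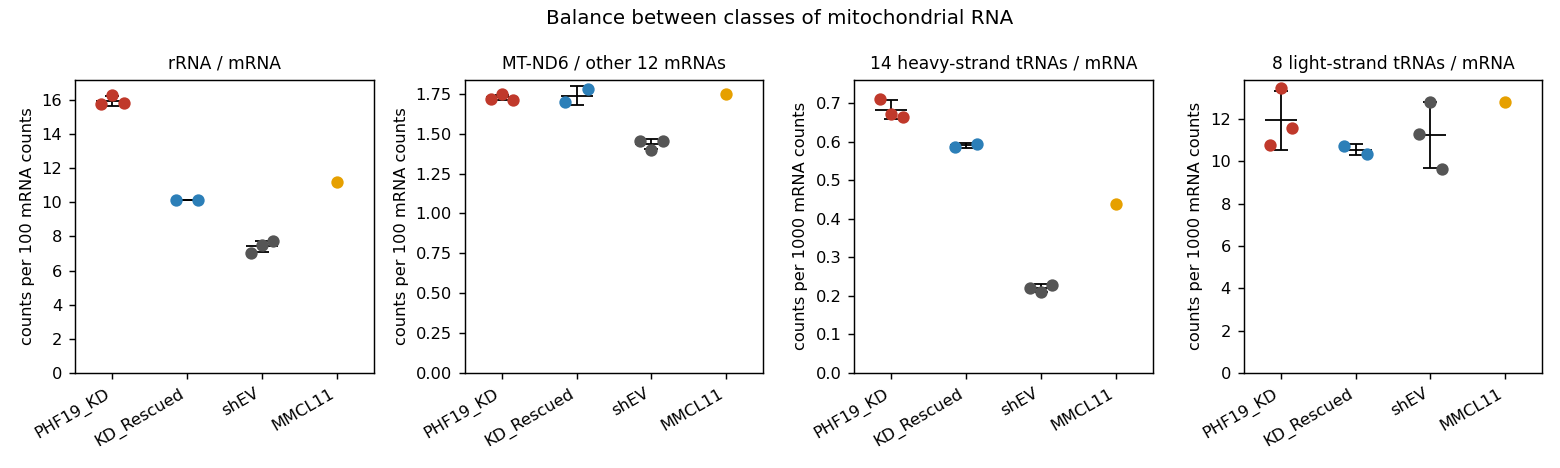
Counts of rRNAs and of MT-ND6 per 100 mRNA counts (for MT-ND6, per 100 counts of the other 12 mRNAs), and of heavy-strand and light-strand tRNAs per 1000 mRNA counts, on linear axes from 0. Points are libraries and bars give mean ± SD of a group. The rRNA ratio falls into 3 separate levels near 15.9, 10.1 and 7.42, whereas the light-strand tRNA ratio overlaps between groups.

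Per gene, 34 of the 37 members passed the filter on low counts, namely all 13 mRNAs, both rRNAs and 19 tRNAs. MT-TW, MT-TG and MT-TP did not. Several of the scarce tRNAs passed only through the group in which they were higher, so counts over the members that passed describe the data and are not offered as evidence. Between PHF19_KD and shEV, 32 of the 34 had an adjusted p below 0.05 and a higher level in PHF19_KD, among 16600 genes of which 69.1% were called, 34.9% higher and 34.2% lower. The libraries of the groups did not overlap for 32 members, all higher in PHF19_KD, where 36.6% of all genes were higher and 35.3% lower without overlap. The median log2 difference was 1.48 for the mRNAs and 2.47 for the rRNAs, beside 0.03 for all genes tested. Since the set was picked on this contrast, nothing is read from that count.

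Against PHF19_KD, 24 of the 34 fell in KD_Rescued and 3 were called higher, while 63.4% of all genes were called, 29.5% lower and 33.9% higher (edgeR quasi-likelihood test, Benjamini-Hochberg adjustment over 16600 genes). Of the 13 mRNAs, 12 fell, with log2 fold changes between -1.17 and -0.19 and a median of -0.84. Both rRNAs fell, and 10 tRNAs fell. The 3 called higher were MT-TR, MT-TS2 and MT-TL2, which passed the filter only through the KD_Rescued libraries. The median over all genes was 0.03. Since the PHF19_KD libraries took part in singling out the set, this contrast is not independent of that choice. Libraries did not overlap for 25 lower and 3 higher members, against 36.4% lower and 40.8% higher of all genes. With MMCL11 counted as a knockdown library, 19 members fell and MT-TL1, MT-TQ, MT-ATP6, MT-ND3 and MT-CYB were no longer called.

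Against shEV, 33 of the 34 were called higher in KD_Rescued by the same test, where 39.8% of all genes were called, 20.7% higher and 19.1% lower. The same 33 had no overlap between the groups, as had 32.5% of all genes that were higher and 29.2% that were lower. All 13 mRNAs rose by 0.35 to 1.15 on the log2 scale, with a median of 0.75 beside 0.02 for all genes. Both rRNAs rose and 18 tRNAs were called higher, and MT-TA, at a log2 difference of 0.07, did not pass. This contrast shares its libraries with the 2 others and is not independent of them. With MMCL11 counted as a knockdown library the count was 17 of 34, and both rRNAs were among the members no longer called.

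**Figure D3:**
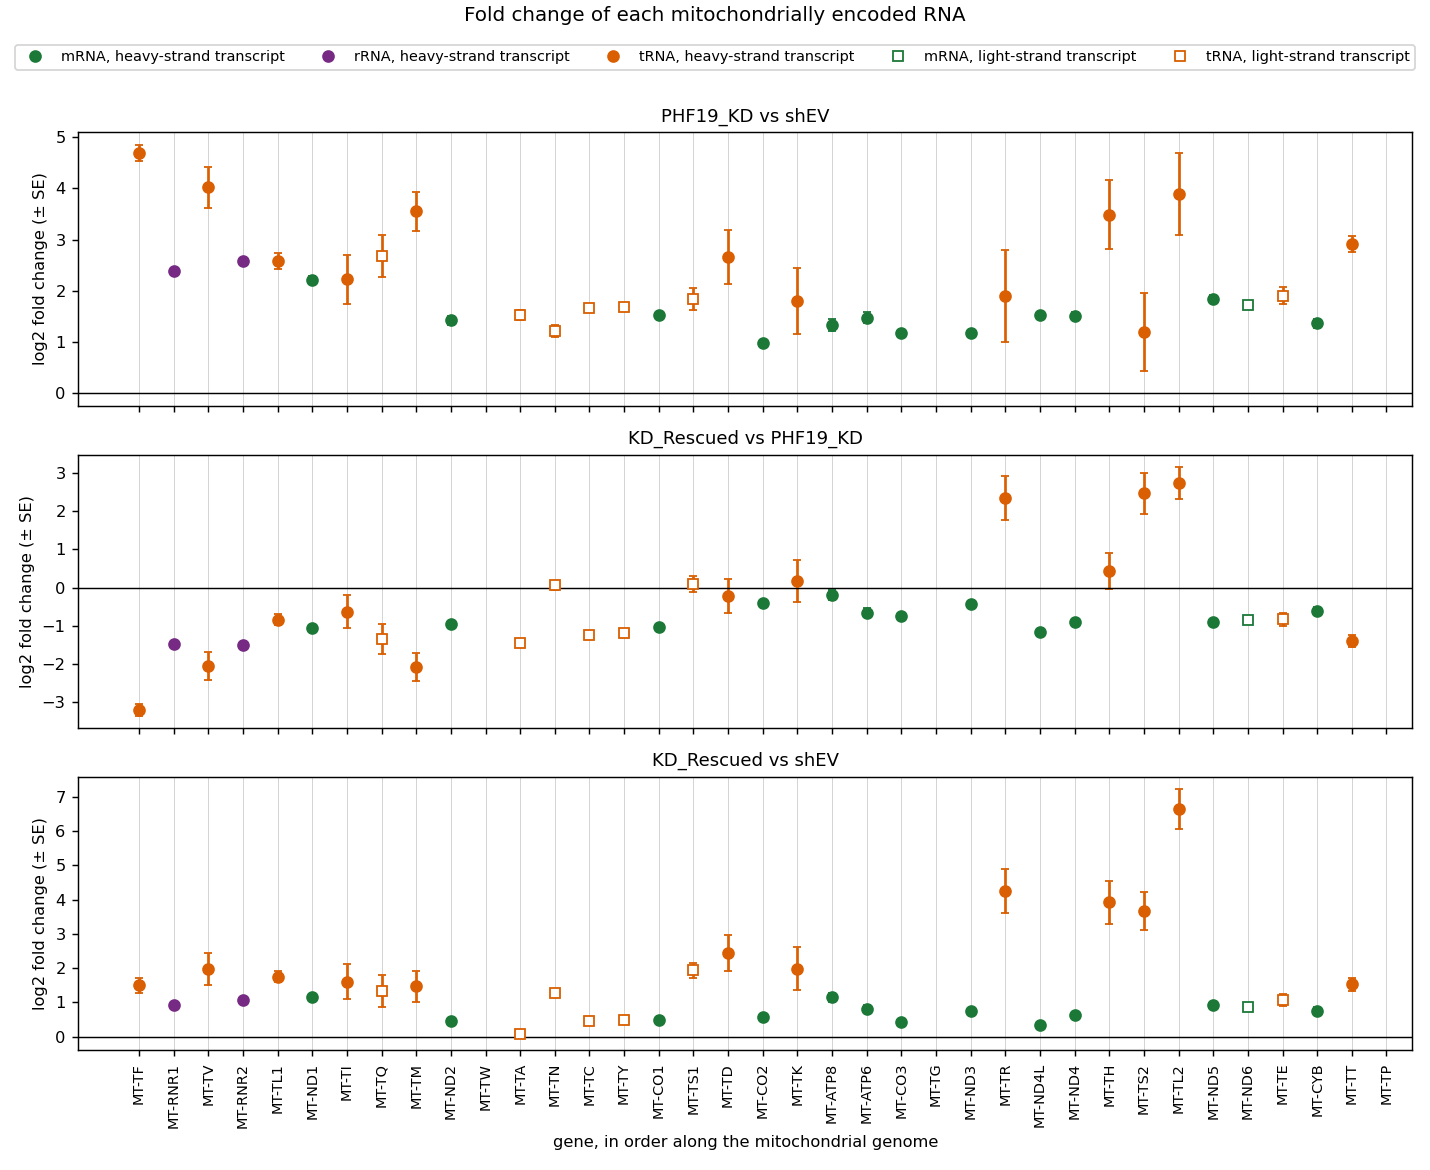
Log2 fold change (points) with its standard error (bars) of the 34 tested members in the 3 contrasts, in gene order along the mitochondrial genome, coloured by class, with filled circles for heavy-strand and open squares for light-strand transcripts. MT-TF has the largest difference between PHF19_KD and shEV (4.69), and MT-TR, MT-TS2 and MT-TL2 stand above 0 in KD_Rescued against PHF19_KD. The fitted values of MT-TR, MT-TH and MT-TL2 against shEV rest on 1 to 3 shEV reads.

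The rRNA genes lie at the start of the heavy-strand transcript. MT-RNR1, the RNA of the small ribosomal subunit, had 879.9, 869 and 958 CPM in PHF19_KD, 326 and 328 CPM in KD_Rescued, and 175, 161 and 185 CPM in shEV. MT-RNR2, the RNA of the large subunit, had 12465, 11529.5 and 12119.8 CPM in PHF19_KD, 4144 and 4353 CPM in KD_Rescued, and 2045, 1851 and 2177 CPM in shEV. No group overlapped another for either RNA. MT-RNR1 fell by 1.47 ± 0.06 on the log2 scale (SE) in KD_Rescued against PHF19_KD (edgeR, adjusted p = 1.76e-09) and rose by 0.91 ± 0.06 against shEV (adjusted p = 9.31e-07). MT-RNR2 fell by 1.503 ± 0.07 (edgeR adjusted p = 2.45e-09) and rose by 1.07 ± 0.06 (adjusted p = 4.74e-07). PHF19_KD exceeded shEV by 2.38 ± 0.06 for MT-RNR1 and 2.57 ± 0.06 for MT-RNR2. These are more than the difference of any mRNA, the nearest being MT-ND1 at 2.21 ± 0.08.

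MT-ND1, a membrane-arm subunit of complex I, is the first mRNA after the rRNAs and showed the largest mRNA difference between knockdown and control. It had 3738, 3369 and 3636 CPM in PHF19_KD, 1658 and 1772 CPM in KD_Rescued, and 857, 692 and 774 CPM in shEV. The groups were fully separate. It fell by 1.06 ± 0.08 (SE) in KD_Rescued against PHF19_KD (edgeR adjusted p = 1.31e-06) and rose by 1.15 ± 0.08 against shEV (adjusted p = 4.06e-06). Within the mRNA counts it held 4.41% ± 0.0138 in PHF19_KD (SD, n = 3), 3.80% ± 0.0580 in KD_Rescued (SD, n = 2) and 2.61% ± 0.101 in shEV (SD, n = 3).

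Complex IV held the most abundant mRNA. MT-CO1, its catalytic subunit, had 28380.1, 25872 and 27801 CPM in PHF19_KD, 13082 and 13553 CPM in KD_Rescued, and 9814, 8850.4 and 9735 CPM in shEV. It fell by 1.04 ± 0.06 (SE) against PHF19_KD (edgeR adjusted p = 1.67e-08) and rose by 0.49 ± 0.06 against shEV (adjusted p = 4.07e-05). MT-CO2, which receives electrons from cytochrome c, had 8054, 7133 and 8071 CPM in PHF19_KD, 5700.1 and 5984 CPM in KD_Rescued, and 4176, 3535 and 4141 CPM in shEV. Its difference between PHF19_KD and shEV, 0.97 ± 0.07, was the smallest of the mRNAs, against 1.53 ± 0.05 for MT-CO1. Accordingly there were 3.52, 3.63 and 3.44 MT-CO1 counts per MT-CO2 count in PHF19_KD, 2.29 and 2.26 in KD_Rescued, and 2.35, 2.50 and 2.35 in shEV, so that in this ratio rescued and control libraries were close and knockdown libraries stood apart. MT-CO2 fell by 0.41 ± 0.08 in KD_Rescued against PHF19_KD (edgeR adjusted p = 0.000993) and rose by 0.56 ± 0.08 against shEV (adjusted p = 0.00027). MT-CO3 fell by 0.75 ± 0.06 against PHF19_KD (edgeR adjusted p = 3.35e-07).

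ATP synthase and the small complex I subunit MT-ND4L marked the ends of the range in rescued cells. MT-ATP8 had 818, 707 and 798 CPM in PHF19_KD, 680.2 and 682 CPM in KD_Rescued, and 351, 253 and 316 CPM in shEV. The rescued libraries lay just below the knockdown ones and well above control. Its log2 difference of -0.19 ± 0.13 (SE) against PHF19_KD did not pass (edgeR adjusted p = 0.233, or 0.0194 without shEV replicate 2), and it rose by 1.15 ± 0.12 against shEV (adjusted p = 0.000252), which with MT-ND1 was the most of any mRNA. MT-ATP6, which shares a transcript with it, fell by 0.66 ± 0.11 against PHF19_KD (edgeR adjusted p = 0.00107). MT-ND4L had 2480.3, 2135 and 2329 CPM in PHF19_KD, 1041 and 1013 CPM in KD_Rescued, and 842, 723 and 855 CPM in shEV. It fell by 1.17 ± 0.08 against PHF19_KD (edgeR adjusted p = 3.74e-07), the most of any mRNA, and rose by 0.35 ± 0.08 against shEV (adjusted p = 0.00517), the least. MT-ATP8 and MT-ATP6 overlap by 46 bases, and MT-ND4L and MT-ND4 by 7, and how reads in these stretches were counted was not stated.

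MT-ND6 had 1432, 1310.2 and 1394 CPM in PHF19_KD, 735 and 807 CPM in KD_Rescued, and 452, 371 and 439 CPM in shEV. It fell by 0.84 ± 0.08 (SE) against PHF19_KD (edgeR adjusted p = 7.2e-06) and rose by 0.87 ± 0.08 against shEV (adjusted p = 2.13e-05), close to the median mRNA. The other complex I mRNAs, MT-ND2, MT-ND3, MT-ND4 and MT-ND5, fell by 0.95, 0.43, 0.90 and 0.91 against PHF19_KD, and MT-CYB, the cytochrome b of complex III, fell by 0.61. In their differences between PHF19_KD and shEV, MT-ND3 (1.18 ± 0.05) and MT-CO3 (1.18 ± 0.05) stood low among the mRNAs and MT-ND5 (1.85 ± 0.08) stood high.

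Scaled per kilobase of gene length, MT-CO1 was first in each group, at 17737 ± 852 CPM per kb in PHF19_KD (SD, n = 3), 8636 ± 216 in KD_Rescued (SD, n = 2) and 6139 ± 347 in shEV (SD, n = 3). MT-CO2 was second, at 11334 ± 785 CPM per kb in PHF19_KD, 8541 ± 294 in KD_Rescued and 5776 ± 527 in shEV. The 2 were clearly apart in PHF19_KD, and their SD ranges between libraries overlapped in KD_Rescued and shEV. Within each of those libraries MT-CO1 was still above MT-CO2. MT-CO3 came next throughout. At the low end came MT-CYB in PHF19_KD (2252 ± 140.1 CPM per kb), within its spread of MT-ND3. In KD_Rescued (1469 ± 96.5) and shEV (801 ± 82.9) it was MT-ND6, with an SD range between libraries that overlapped that of MT-CYB. Within each shEV library MT-CYB was above MT-ND6, and the KD_Rescued libraries were divided. MT-ND1 held the eighth place among the mRNAs in PHF19_KD, the ninth in KD_Rescued and the twelfth in shEV. MT-RNR2 stood at 7722 ± 303 CPM per kb in PHF19_KD, 2725 ± 95.1 in KD_Rescued and 1298 ± 105 in shEV, and MT-RNR1 at 946 ± 51.1 in PHF19_KD, 343 ± 1.32 in KD_Rescued and 182 ± 12.5 in shEV, levels that in any library depend on how rRNA was removed.

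Among the tRNAs, 4 neighbouring light-strand genes, MT-TA, MT-TN, MT-TC and MT-TY, supplied most counts. MT-TA, for alanine, had 497, 592 and 535 CPM in PHF19_KD, 199 and 196 CPM in KD_Rescued, and 198, 204 and 160.1 CPM in shEV. Rescued and control libraries overlapped, and the knockdown libraries were well above. It fell by 1.46 ± 0.11 (SE) against PHF19_KD (edgeR adjusted p = 3.16e-06), while its difference from shEV was 0.07 ± 0.11 (adjusted p = 0.615), the one tested member that did not pass there. MT-TC, for cysteine, had 129, 136 and 136 CPM in PHF19_KD, 55.9 and 58.5 CPM in KD_Rescued, and 46.3, 42.8 and 36.5 CPM in shEV. It fell by 1.23 ± 0.08 against PHF19_KD (edgeR adjusted p = 8.05e-08) and rose by 0.45 ± 0.08 against shEV (adjusted p = 0.00116).

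MT-TN, for asparagine, lies directly between MT-TA and MT-TC on the same transcript and gave a different order. It had 117, 118 and 121 CPM in PHF19_KD, 114 and 133 CPM in KD_Rescued, and 59.7, 42.1 and 51.7 CPM in shEV. The rescued libraries enclosed the knockdown ones, and both stood above control. The difference from PHF19_KD was 0.06 ± 0.12 (SE; edgeR adjusted p = 0.696), and it rose by 1.27 ± 0.12 against shEV (adjusted p = 8.87e-05). MT-TN thus held 24.6% of tRNA counts in KD_Rescued against 11.6% in PHF19_KD and 15.2% in shEV, while MT-TA held 39.3%, against 53.0% in PHF19_KD and 55.3% in shEV. MT-TS1, a serine tRNA of the same strand, gave 36.0, 35.1 and 30.4 CPM in PHF19_KD, 44.4 and 28.0 CPM in KD_Rescued, and 10.1, 10.6 and 7.37 CPM in shEV, without a call between KD_Rescued and PHF19_KD (edgeR adjusted p = 0.700). Without KD_Rescued replicate 2 its log2 difference of 0.40 was called.

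At the start of the heavy-strand transcript, MT-TF, for phenylalanine, had 13.3, 14.5 and 13.4 CPM in PHF19_KD, 1.62 and 1.38 CPM in KD_Rescued, and 0.497, 0.506 and 0.590 CPM in shEV. The knockdown libraries held 143 to 175 reads each and the control libraries 10 or 11. It differed by 4.69 ± 0.16 on the log2 scale (SE) between PHF19_KD and shEV, the most of any member with more than 3 counts in each group. MT-TF fell by 3.19 ± 0.15 in KD_Rescued against PHF19_KD (edgeR adjusted p = 4.48e-09) and rose by 1.495 ± 0.22 against shEV (adjusted p = 0.000244). MT-TV, for valine, between the rRNA genes, had 4.19, 3.06 and 2.95 CPM in PHF19_KD, 0.790 and 0.835 CPM in KD_Rescued, and 0.181, 0.354 and 0.0590 CPM in shEV. Its difference between PHF19_KD and shEV was 4.02 ± 0.39, and it fell by 2.05 ± 0.36 against PHF19_KD (edgeR adjusted p = 0.000304).

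MT-TM, for methionine, a little further along, had 3.81, 2.32 and 2.43 CPM in PHF19_KD, 0.749 and 0.584 CPM in KD_Rescued, and 0.271, 0.303 and 0.118 CPM in shEV, again in 3 separate levels. It fell by 2.08 ± 0.36 (SE) against PHF19_KD (edgeR adjusted p = 0.000295). Its log2 difference from shEV was 1.47 ± 0.45 in KD_Rescued, and its call there was lost without KD_Rescued replicate 1. MT-TL1, just after the rRNA genes, and MT-TT, at the far end of the heavy-strand genes, fell by 0.84 ± 0.14 and 1.39 ± 0.15 against PHF19_KD.

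MT-TR, MT-TS2 and MT-TL2, whose genes are printed above, had more reads in KD_Rescued than in the other groups. They reached the filter on low counts only through the KD_Rescued libraries, so their values are a description, with no test. All of them lie late on the heavy strand, MT-TR between MT-ND3 and MT-ND4L, and MT-TS2 and MT-TL2 in a row with MT-TH between MT-ND4 and MT-ND5. MT-TL2, for leucine, had 63 and 51 reads in KD_Rescued, 3, 6 and 3 reads in PHF19_KD, and 1, 0 and 0 reads in shEV. Scaled, the KD_Rescued libraries held 2.62 and 2.13 CPM, the PHF19_KD libraries 0.279, 0.496 and 0.260 CPM, and the shEV libraries 0.0452, 0 and 0 CPM, with no overlap. The fitted log2 difference between KD_Rescued and PHF19_KD was 2.74 ± 0.41 (SE). Against the single read of shEV the ratio of pooled, depth-scaled counts was 139.7, with a 95% exact interval of 24.6 to 5567 that covers counting error only.

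MT-TS2, for serine, had 24 and 32 reads in KD_Rescued, 3, 1 and 3 in PHF19_KD, and 1, 1 and 3 in shEV. That came to 0.998 and 1.34 CPM for KD_Rescued, 0.279, 0.0827 and 0.260 CPM for PHF19_KD, and 0.0452, 0.0506 and 0.177 CPM for shEV. PHF19_KD overlapped shEV, and the rescued libraries stood above both. Its fitted log2 difference from PHF19_KD was 2.47 ± 0.54 (SE). MT-TR, for arginine, had 20 and 17 reads in KD_Rescued, 2, 2 and 1 in PHF19_KD, and 1, 1 and 0 in shEV, which came to 0.832 and 0.709 CPM for KD_Rescued, 0.186, 0.165 and 0.0867 CPM for PHF19_KD, and 0.0452, 0.0506 and 0 CPM for shEV. Its fitted log2 difference from PHF19_KD was 2.35 ± 0.57, and DESeq2 did not call it. Its pooled ratio to shEV was 22.7 (95% exact interval 5.85 to 194), on 37 against 2 reads. MMCL11 had 2 reads each for MT-TL2, MT-TS2 and MT-TR. When it was counted as a rescued library these 3 tRNAs did not pass the filter on low counts and were not tested, and the same held with a filter at a mean of 5 CPM. The higher values of the 3 thus come from the 2 libraries of lane 2, which were also the deepest.

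Among the remaining scarce tRNAs, MT-TH, MT-TG, MT-TW and MT-TK also had their highest mean CPM in KD_Rescued. MT-TG and MT-TW lay above both other groups there without overlap, whereas MT-TH and MT-TK overlapped PHF19_KD. MT-TD and MT-TI were highest in PHF19_KD. MT-TH had 42 reads in KD_Rescued, 22 in PHF19_KD and 3 in shEV, with a ratio of 17.2 (95% exact interval 5.48 to 86.6) for KD_Rescued against shEV and of 12.6 (3.77 to 65.5) for PHF19_KD against shEV. MT-TG, which did not pass the filter, had 25 reads in KD_Rescued, 3 in PHF19_KD and 2 in shEV, a ratio of 5.97 (1.82 to 30.9) against PHF19_KD and 15.3 (3.82 to 133) against shEV. MT-TW had 25 reads in KD_Rescued, 7 in PHF19_KD and 3 in shEV, the last a ratio of 10.2 (3.12 to 52.9) for KD_Rescued against shEV. MT-TP was at or below the limit of 3 reads in each group, so no fold is given. MT-TD, MT-TI and MT-TK, at 0.17 to 1.68 CPM in the PHF19_KD libraries, were not called between KD_Rescued and PHF19_KD, and the calls of MT-TQ and MT-TK against shEV were lost in 6 and 4 of the 8 fits that each left out a library, the PHF19_KD ones included.

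**Figure D4:**
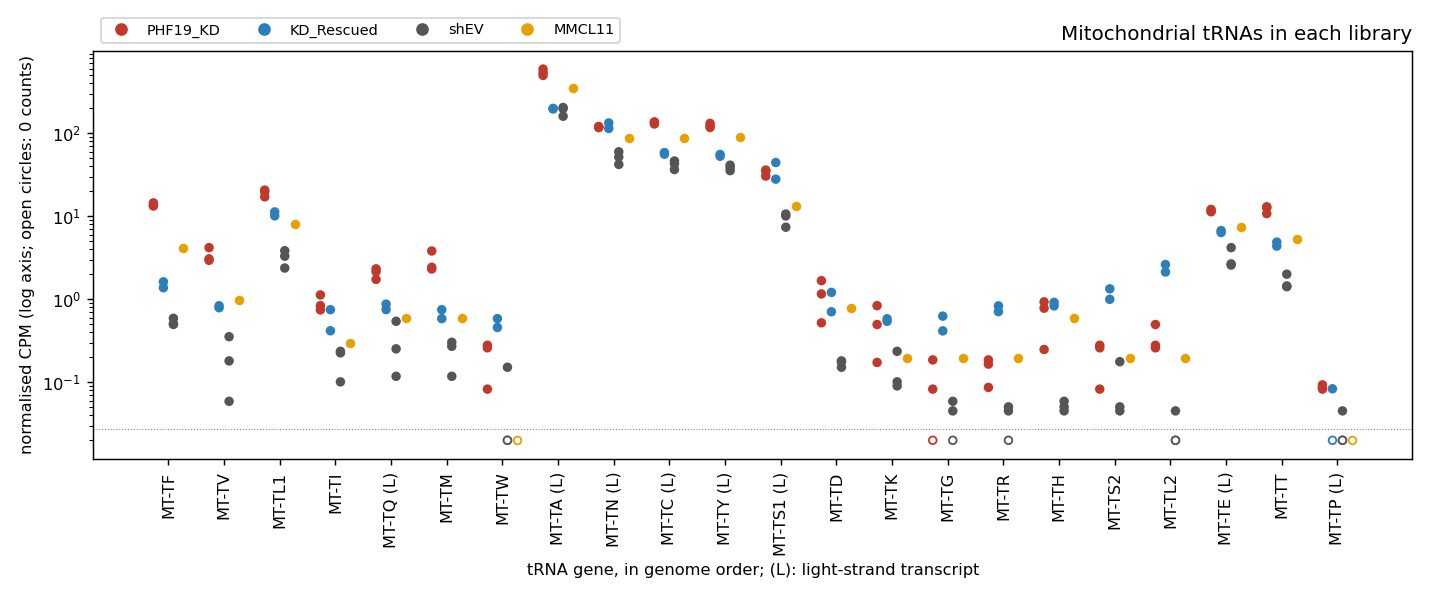
Normalised CPM (log axis) of the 22 tRNAs in each library, in genome order, with light-strand genes marked (L) and open circles for libraries with 0 counts. MT-TF, MT-TV and MT-TM are highest in PHF19_KD (2.32 to 14.5 CPM), MT-TR, MT-TS2 and MT-TL2 are highest in KD_Rescued (0.709 to 2.62 CPM), and MT-TN is level between these groups.

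Reads from nuclear copies of mitochondrial DNA can be confused with those of the members. The table had 190 rows of such copies, of which 3 averaged at least 100 counts, and together they amounted to 1.52% to 1.77% of the mitochondrial counts in any library. MTATP6P1, MTND4P12 and MTND2P28 averaged 788, 509 and 247 CPM in PHF19_KD, 437, 325 and 109 CPM in KD_Rescued, and 257, 190.4 and 91.9 CPM in shEV. Each fell in KD_Rescued against PHF19_KD, by 0.85, 0.65 and 1.18 on the log2 scale, as the members mostly did. Of the members, 11 had counts that were not whole in at least 1 library, as arises where reads are divided between rows, whereas the 22 tRNAs had whole counts in every library. The table writes at most 6 significant digits, so wholeness cannot be judged for the 22 member values of 100000 or more.

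Nuclear genes that maintain mitochondrial DNA or make, process and modify its RNAs, regulators of mitochondrial biogenesis and markers of mitochondrial mass were examined as 8 lists. The lists were chosen with earlier results of these data known, and genes named from them were picked largely by lowest adjusted p. Their counts and p-values are therefore not independent of these data. Of their 98 genes, 69 fell and 11 rose in PHF19_KD against shEV, with a median log2 fold change of -0.41 (edgeR quasi-likelihood, adjusted over 16600 genes, of which 34.2% were called lower and 34.9% higher). KD_Rescued against PHF19_KD gave 60 rises and 10 falls at a median of 0.36, where 33.9% of all genes were called higher and 29.5% lower, or 49 rises and 17 falls with upper-quartile scaling. KD_Rescued against shEV gave 14 rises and 32 falls at a median of -0.08, where 20.7% of all genes were called higher and 19.1% lower, and 52 genes were not called. That last count depended on single libraries, with 9 rises and 18 falls without KD_Rescued replicate 1 and 20 falls without replicate 2. TFAM stands on 2 lists and is counted once.

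Of the 9 transcription genes, 6 fell and 1 rose in PHF19_KD against shEV. TFAM, which packages mitochondrial DNA and starts its transcription, had 55.1, 55.7 and 58.2 CPM in PHF19_KD, 72.9 and 72.2 CPM in KD_Rescued, and 120, 119 and 128 CPM in shEV. No group overlapped another. It fell by 1.11 ± 0.05 (SE) in PHF19_KD against shEV (edgeR adjusted p = 1.57e-09), rose by 0.37 ± 0.05 in KD_Rescued against PHF19_KD (adjusted p = 9.53e-05), and fell by 0.75 ± 0.05 in KD_Rescued against shEV (adjusted p = 1.33e-06). TFB2M, the initiation partner of the mitochondrial polymerase, fell by 0.47 ± 0.06 in PHF19_KD against shEV, and MTERF2, of the termination factor family, rose by 0.96 ± 0.22. TEFM, the elongation factor, rose in KD_Rescued against PHF19_KD by 0.85 ± 0.14 and against shEV by 0.50 ± 0.12. POLRMT, the polymerase itself, singled out after its values were seen, had 81.1, 85.6 and 81.9 CPM in PHF19_KD, 92.8 and 93.1 CPM in KD_Rescued, and 95.6, 104 and 65.0 CPM in shEV and was not called in any contrast.

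The 18 genes of mitochondrial DNA replication and maintenance were divided, with 9 falls and 6 rises in PHF19_KD against shEV. DNA2, a nuclease and helicase that also works in the nucleus, averaged 3.88 ± 0.495 CPM in PHF19_KD (SD, n = 3), 21.2 ± 0.803 in KD_Rescued (SD, n = 2) and 27.7 ± 1.62 in shEV (SD, n = 3), a fall of 2.83 ± 0.11 (SE) in PHF19_KD. SSBP1, the single-strand binding protein, fell by 1.02 ± 0.04. TYMP, the thymidine phosphorylase, and TK2, the mitochondrial thymidine kinase, rose by 1.53 ± 0.16 and 0.59 ± 0.06. In KD_Rescued against PHF19_KD, 7 of the list rose, DNA2 by 2.45 ± 0.11 and SSBP1 by 0.92 ± 0.05, and 5 fell, among them TYMP by 1.47 ± 0.17.

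For the 17 genes listed under cutting and polyadenylation of the precursors, the count in PHF19_KD against shEV was 14 falls and 1 rise. The list is broader than these steps. PTCD3, a protein of the small mitochondrial ribosomal subunit, fell by 0.64 ± 0.05 (SE) and FASTKD1 by 0.88 ± 0.07, while PTCD2 rose by 0.28 ± 0.07. FASTK, known for its role in maturing MT-ND6 mRNA, was not called in PHF19_KD against shEV (edgeR adjusted p = 0.437) and rose in KD_Rescued by 0.68 ± 0.06 against PHF19_KD and by 0.74 ± 0.06 against shEV. Of the 7 genes of mRNA stability and decay, 6 fell in PHF19_KD against shEV and 6 rose in KD_Rescued against PHF19_KD. SLIRP, which with LRPPRC protects mitochondrial mRNAs, had 7.36, 7.40 and 7.39 CPM in PHF19_KD, 20.6 and 21.0 CPM in KD_Rescued, and 16.7, 12.5 and 13.4 CPM in shEV, and LRPPRC averaged 304 ± 2.76 CPM in PHF19_KD, 317 ± 3.18 CPM in KD_Rescued and 426 ± 24.2 CPM in shEV (SD). PNPT1, the mitochondrial polynucleotide phosphorylase, and PDE12, a deadenylase, fell by 0.63 ± 0.06 and 0.67 ± 0.06 in PHF19_KD.

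Of 16 genes that modify mitochondrial tRNAs, 9 fell and 1 rose in PHF19_KD against shEV, and 9 rose and 1 fell in KD_Rescued against PHF19_KD. TRMU, which adds sulfur to the wobble uridine of a few tRNAs, rose by 1.02 ± 0.07 (SE) against PHF19_KD and by 0.69 ± 0.07 against shEV, and GTPBP3, of a wobble modification complex, rose by 0.79 ± 0.08 against shEV. OSGEPL1 had the 1 rise in PHF19_KD, 0.36 ± 0.10. Among 10 rRNA modification genes 7 fell in PHF19_KD against shEV, among them FTSJ2, also called MRM2, a methyltransferase of the large rRNA, at -1.02 ± 0.06, and RPUSD4, a pseudouridine synthase, at -0.76 ± 0.05. Of 9 regulators of mitochondrial biogenesis, 8 fell and ESRRA rose, by 0.42 ± 0.06, with NRF1 at 16.2 ± 0.286 CPM in PHF19_KD, 29.5 ± 0.866 CPM in KD_Rescued and 27.5 ± 1.501 CPM in shEV (SD).

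Genes of the outer membrane, inner membrane and matrix, chosen as markers of mitochondrial mass, also fell in PHF19_KD against shEV in 11 of 13 cases. The matrix chaperonin HSPD1 averaged 594 ± 17.6 CPM in PHF19_KD (SD, n = 3), 991 ± 1.06 in KD_Rescued (SD, n = 2) and 1279 ± 104 in shEV (SD, n = 3), and it fell by 1.11 ± 0.05 (SE). The channel VDAC3 fell by 1.05 ± 0.05, and the import receptor TOMM20 rose by 0.40 ± 0.04. In KD_Rescued against PHF19_KD 10 of the list rose, VDAC3 by 0.92 ± 0.06, and VDAC2 and TOMM20 fell. In KD_Rescued against shEV 8 of the list fell. HSPD1, VDAC2, VDAC3, TOMM20, ESRRA, PNPT1, PTCD3, SLIRP and TYMP had counts that were not whole in all 9 libraries. The same held in 8 libraries for TK2, in 7 for TFB2M, MTERF2, FASTKD1 and RPUSD4, and in 6 for TFAM and TEFM. Some other named genes had such counts in fewer libraries. Counts that are not whole can arise where reads are divided between rows, so these levels are less certain.

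**Figure D5:**
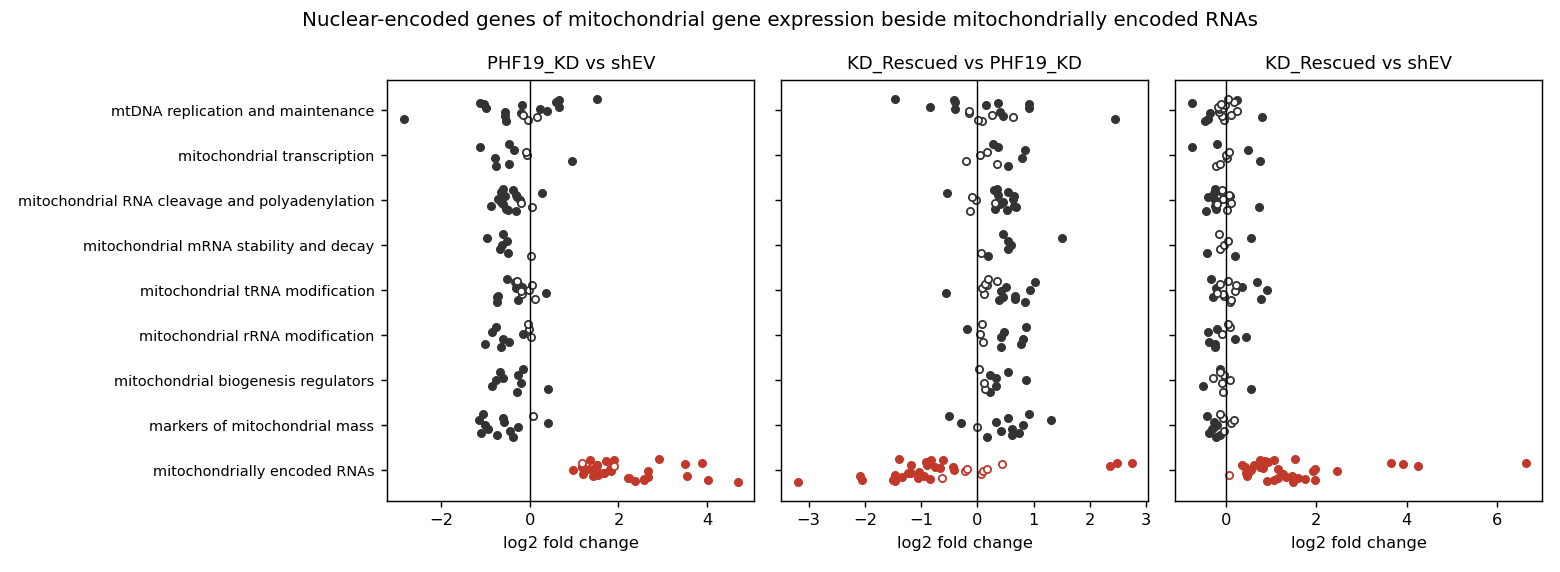
Log2 fold change of the 98 nuclear genes by list (black) and of the 34 tested mitochondrially encoded RNAs (red) in the 3 contrasts, 1 point per gene, filled where the adjusted p was below 0.05. In PHF19_KD against shEV the nuclear genes lie mostly below 0 (69 falls) and the members above.

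MMCL11, the library with disagreeing labels, had 5.56% of its counts in mitochondrially encoded RNAs, 11.2 rRNA counts per 100 mRNA counts and 1.75 MT-ND6 counts per 100 of the other mRNAs. All 13 mRNAs, both rRNAs and 19 of the 22 tRNAs stood above every shEV library, and the other 3 tRNAs lay within the shEV range. Against PHF19_KD, all 13 mRNAs, both rRNAs and 16 tRNAs stood below every library. Set beside KD_Rescued, 6 mRNAs were above, 3 within and 4 below its range. Both rRNAs stood above that range, as did 7 tRNAs, with 3 tRNAs within it and 12 below.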

How the data were processed

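RNA-seq of 9 MM1S libraries was deposited by the authors as 1 gene table of estimated counts. Per the submitters' processing notes CASAVA, RSEM and hg19 were used, whereas the table's own name refers to salmon. The roles of these tools, the annotation, the strand setting and the treatment of reads that map to several rows or cross gene borders were not stated in any source used here. The authors deposited the estimated counts without normalisation, and 15.6% to 19.4% of values per library were not whole. They were rounded to whole numbers for the tests.

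Counts of the 8 libraries of PHF19_KD, KD_Rescued and shEV were fitted together with edgeR 4.0.16 in R 4.3.3 (filterByExpr by group, TMM factors, robust quasi-likelihood fit, Benjamini-Hochberg adjustment over 16600 genes, threshold 0.05). MMCL11 stayed out because its labels disagree. Its CPM were scaled to the same library. Summed classes were compared by exact two-sided permutation of libraries, where 2 against 3 allow no p below 0.1. The fit was also run on simulated counts in which far fewer genes changed than were called here, evenly up and down and at a fixed spread. That run cannot show how the fit performs where most genes differ.

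The members and lists were chosen with earlier results of these data known. By rule, values in every library were given for the classes, both rRNAs, MT-ND6, the most abundant mRNA and 3 most abundant tRNAs, and per contrast the mRNAs and tRNAs with the largest and smallest fold change. Of each nuclear list the rule took at most 2 rises and 2 falls with the lowest adjusted p. Other members were named after their values were seen. Ratios against 1 to 3 reads carry exact 95% intervals, which, like the floor of 3 reads, cover counting error only.

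Alternatives were DESeq2 1.42.0, limma-voom (limma 3.58.1), upper-quartile factors, scaling without mitochondrial rows, other filters, MMCL11 placed in either group, each library left out, the rRNAs left out and a replicate block. Sequences, lengths, strands, gene order and overlaps between genes came from GENCODE release 29 on GRCh38 by symbol.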

Additional observations from a re-analysis of the deposited data

Results flagged for a closer look

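The library MMCL11, whose labels disagree and which enters no comparison, had mitochondrial levels above every shEV library. Its mitochondrially encoded RNAs summed to 55734 normalised CPM, against a highest shEV library of 34072 CPM, and they took 5.56% of its counts, against at most 3.32% in shEV. By class, the mRNAs summed to 49529 CPM in MMCL11 and at most 31489.7 CPM in shEV, the rRNAs to 5549.75 CPM in MMCL11 and at most 2362 CPM in shEV, and the tRNAs to 656 CPM in MMCL11 and at most 363 CPM in shEV. PHF19 stood at 63.6 CPM in this library. Its group cannot be settled from the labels.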

How the results depend on the processing

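Of 1689 values of single members under alternatives, 1635 kept their side of the threshold, 51 lost their call and 3 gained one. With a call in either fit, 0 reversed direction. The 1635 include any value that changed direction without a call in either fit. The mitochondrial share in PHF19_KD minus shEV was 6.44 percentage points, and 5.45 without the 2 rRNAs or 5.43 with MMCL11 counted as PHF19_KD, which also gave a log2 rRNA to mRNA ratio of 0.98 in place of 1.10. The tRNA share of mitochondrial counts had no stable direction, running from -0.0542 to 0.0889 points in PHF19_KD minus shEV when single libraries were left out, with -0.0437 without PHF19_KD replicate 2, and from -0.128 to 0.0147 in KD_Rescued minus shEV, or 0.00359 with MMCL11 counted as KD_Rescued. The log2 MT-ND6 ratio in KD_Rescued minus PHF19_KD ran from -0.0264 to 0.0441. The 3 members called higher in KD_Rescued against PHF19_KD became 0 with a filter at 5 CPM and 0 with MMCL11 as KD_Rescued, because they were no longer tested. With MMCL11 as PHF19_KD, 17 members instead of 33 were called higher in KD_Rescued against shEV. The cause was not tested. For nuclear genes in KD_Rescued against shEV, the 14 rises became 7 with MMCL11 as PHF19_KD, 1 with it as KD_Rescued and 9 to 16 without single libraries, and the 32 falls became 18 to 39. In KD_Rescued against PHF19_KD, the 60 rises and 10 falls became 31 and 4 with MMCL11 as KD_Rescued, and 49 and 17 with upper-quartile factors, which moved the median log2 of all genes to -0.12 and, in PHF19_KD against shEV, to 0.19 from 0.03. Those factors gave 15 rises and 52 falls in PHF19_KD against shEV, against 11 and 69. DESeq2 called 2 members higher and 24 lower in KD_Rescued against PHF19_KD and 27 higher in KD_Rescued against shEV. Of the members no longer called against shEV, MT-TI, MT-TQ and MT-TM lost their call, and the others got no adjusted p from DESeq2. Deviations of same-numbered libraries were only weakly correlated (-0.0206 to 0.0565, none over 0.1). With 2 or 3 libraries per group, these values cannot settle whether the numbers pair the samples. The main fit was unpaired. With a replicate block, 32 members were higher in PHF19_KD against shEV, 3 were higher and 24 lower in KD_Rescued against PHF19_KD, and 31 were higher in KD_Rescued against shEV. Groups of 2 or 3 libraries and tRNA counts of a few reads limit the precision of the scarce tRNAs.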
